A study of Mus musculus with 6 samples.

Results

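Axon guidance ligands and receptors were examined in 6 poly(A)-selected RNA sequencing libraries of cultured mouse neural stem cells. The genes were the rows of the gene table named for an Eph receptor, an ephrin, a class 3 to 7 semaphorin, a plexin, a neuropilin, a Slit, a Robo, a netrin, an Unc5 receptor or Dcc. This gave 69 genes of 54884 entries, of which 35 encode ligands and 34 encode receptors, each with 1 row. Per the labels, the cells came from the hippocampus of C57BL/6J embryos at day 14 of gestation and were used between passages 3 and 8. A total of 3 libraries came from cells given a lentivirus with a control siRNA (circCon), and 3 from cells given one with an siRNA against circHIPK2, a circular RNA made from Hipk2. Both groups had thus been transduced, and the promoter of the virus and the level of the circle were not analysed here. The labels do not say whether the replicates are separate cultures, so every p-value describes library-to-library spread alone, and that spread may be technical.

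Guidance molecules steer growing axons and migrating cells by attraction or repulsion. Ephrins are bound to the membrane, by a lipid anchor in the A class and by a transmembrane segment in the B class, and signal through Eph receptor tyrosine kinases. Semaphorins signal through plexins, and secreted class 3 semaphorins mostly need a neuropilin as co-receptor. Slits are secreted and bind Robo receptors, and netrins bind Dcc or Unc5 receptors. The same molecules are known to position and maintain neural progenitors, which is one reason to ask which of them neural stem cells express.

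Expression is given in FPKM (fragments per kilobase of transcript, scaled to the mapped fragments of a library), which is scaled for length and so allows levels of different genes to be set side by side. The steps of the lowest values gave depth estimates between 18310000 and 21940000 fragments per library. One fragment of a 1 kb transcript is then worth 0.0456 to 0.0546 FPKM. The labelled cell type was checked against its markers. Of 11 neural stem and progenitor markers, 10 had a mean of at least 1 FPKM, with Sox2 at 98.0 and Nes at 77.2 FPKM in the controls, and their sum ran from 1946 to 2485 FPKM there and from 1766 to 2217 FPKM with the siRNA. Within this list Fabp7 (means 1206 and 755 FPKM), Hes5 (17.2 and 10.1 FPKM) and Hes1 (8.34 and 7.16 FPKM) were lower in all siRNA libraries. So were 22.1% of all genes with a mean of at least 1 FPKM. The rest of the list overlapped between groups. Vim (means 507 and 626 FPKM), Slc1a3 (304 and 353 FPKM), Sox2, Notch1 and Pax6 were higher on average with the siRNA, and Msi1, Nes and Prom1 lower. All 6 astrocyte markers passed 1 FPKM, with sums of 255 to 457 and 217 to 478 FPKM, and the oligodendrocyte lineage factor Olig2 stood at 242 FPKM. Of 9 neuronal markers, 5 passed that level. Their control means were 109 FPKM (Map2), 107 FPKM (Gap43), 8.12 FPKM (Tubb3), 3.59 FPKM (Snap25) and 1.19 FPKM (Dcx). Rbfox3 (0.195 FPKM), Stmn2 (0.0264 FPKM), Neurod1 and Syt1 did not pass. Map2, Tubb3 and Snap25 were lower in all siRNA libraries, as were 22.1% of all genes, and the rest of this list overlapped between groups. The summed neuronal markers ran from 209 to 248 FPKM in control libraries and from 185 to 211 FPKM with the siRNA. The 8 oligodendrocyte lineage markers summed to 779 to 847 and 623 to 779 FPKM. The part of these shifts in the results below was not tested. None of 6 microglial, 5 endothelial or 6 fibroblast and meningeal markers reached a mean of 1 FPKM. In these bulk libraries, fewer cells of a type and less RNA per cell cannot be told apart. The siRNA libraries stood apart in 9 entries that lie in the ribosomal RNA locus or varied with it, called ribosomal RNA locus entries below. These took 11.5%, 3.24% and 19.9% of all FPKM in siRNA libraries 1 to 3, against 0.321% to 0.580% in the controls. Transcripts known from liver, as the sum of 6 markers, were at 30.9 to 51.7 FPKM in control libraries and 1.95 to 2.21 FPKM with the siRNA.

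Neural stem cells expressed members of nearly all the guidance families. All members of the Ephb, Efnb, Sema5, Sema6 and Plxnb families reached a mean of 1 FPKM, whereas 1 of 7 Sema3 genes, 1 of 3 Slits and 3 of 9 Epha genes did. Of the 69 genes, 46 had a mean of at least 1 FPKM over the 6 libraries (66.7%, against 25% of all entries), and these were the ones tested. A mean of at least 10 FPKM was reached by 10 members, which together held 57.9% of the summed FPKM. They were, from the highest, the plexins Plxnb2 and Plxna1, the netrin Ntn1, the semaphorins Sema6d and Sema6a, the plexin Plxnb1, the semaphorins Sema4b and Sema5b, the netrin Ntn4 and the neuropilin Nrp2. The members tested were of modest level, with a median of 4.55 FPKM against 8.67 FPKM for all genes tested, and 10 of the 46 lay above the latter. At the other end, 14 members had means from 0.1 to 1 FPKM and 9 had means under 0.1 FPKM.

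**Figure D1:**
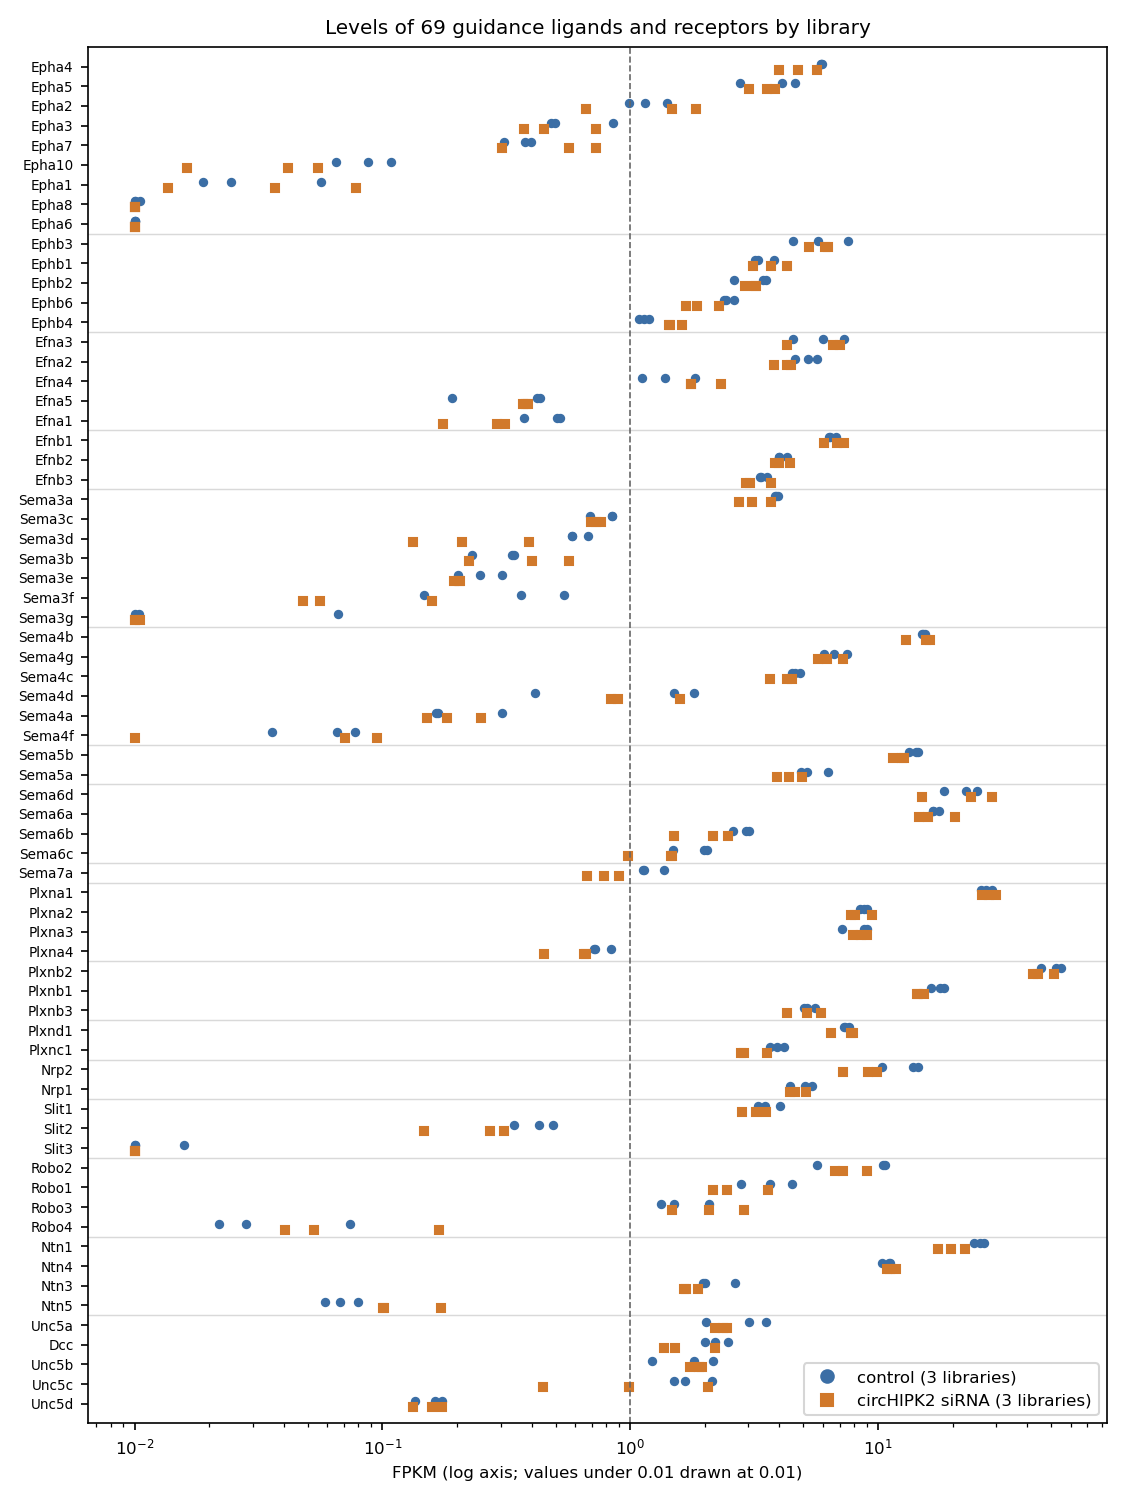
FPKM of each of the 69 genes on a log axis, grouped by family, with 1 point per library (circles, 3 controls; squares, 3 circHIPK2 siRNA libraries). The dashed line marks a mean of 1 FPKM, the limit for testing; levels run from Plxnb2, at 42.3 to 54.6 FPKM, down to Epha6, at 0 in 2 libraries, and some families are led by 1 member (Slit1, Plxnb2) while others, such as Efnb, are graded.

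Members above and below 1 FPKM had a similar median CpG count in their promoters. A promoter sequence of RefSeq (GRCm38.p6) was matched by symbol for 59 members, and CpG dinucleotides were counted in the 250 bases before the annotated start. The 10 members without a match include the abundant Plxna1, Ntn1 and Sema6a. For 51 of the 59, the 30 bases after the start lay in a GENCODE M21 transcript of the gene. The 40 matched members with a mean of at least 1 FPKM held a median of 16.5 CpG, and the 19 below that level a median of 16. Among all genes of the table the medians were 17 and 3. Fewer than 5 CpG were held by 7.5% of the members at 1 FPKM or more and 26.3% of those below, against 7.73% and 61.7% of all genes. The 9 members under 0.1 FPKM held a median of 9 CpG, and 33.3% of them had fewer than 5. These shares are a description with no test, and the authors' files use another build. The letters TATAAA, on either strand, were found in the promoter of 1 of the 40 (2.5%) and 1 of the 19 (5.26%). Among all genes they were found in 5.72% at 1 FPKM or more and 17.3% below, and in 13.0% of all promoters.

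Level and CpG count did not go together in every member, as shown by 4 promoters picked as extremes, written from 250 bases upstream to the base before the start with each CpG in capitals. Plxnb2 is the member of highest level (48.3 FPKM; chr15:89180789-89181038, minus strand) and has 20 CpG. Epha8 (0.00652 FPKM; chr4:136956817-136957066, minus strand) and Slit3 (0.00678 FPKM; chr11:35121206-35121455, plus strand) were nearly undetected and have the most CpG of the members under 0.1 FPKM, 46 and 35. Sema3a (3.54 FPKM; chr5:13396534-13396783, plus strand) is expressed and has 2.
Plxnb2: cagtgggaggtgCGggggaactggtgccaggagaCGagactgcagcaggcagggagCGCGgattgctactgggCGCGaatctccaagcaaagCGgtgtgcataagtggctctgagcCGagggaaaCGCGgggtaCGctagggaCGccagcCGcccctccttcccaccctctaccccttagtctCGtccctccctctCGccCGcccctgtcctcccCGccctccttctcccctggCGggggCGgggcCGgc
Epha8: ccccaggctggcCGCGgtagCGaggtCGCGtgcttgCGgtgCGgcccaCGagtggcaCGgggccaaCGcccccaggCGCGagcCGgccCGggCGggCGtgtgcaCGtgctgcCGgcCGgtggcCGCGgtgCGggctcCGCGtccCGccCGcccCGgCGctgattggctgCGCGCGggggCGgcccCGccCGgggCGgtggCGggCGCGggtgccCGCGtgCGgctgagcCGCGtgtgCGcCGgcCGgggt
Slit3: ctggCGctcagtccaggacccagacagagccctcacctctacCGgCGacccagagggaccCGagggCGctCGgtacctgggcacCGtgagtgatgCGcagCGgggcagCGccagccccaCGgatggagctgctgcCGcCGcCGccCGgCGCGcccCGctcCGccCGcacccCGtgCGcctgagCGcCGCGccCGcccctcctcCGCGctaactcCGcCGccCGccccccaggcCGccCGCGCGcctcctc
Sema3a: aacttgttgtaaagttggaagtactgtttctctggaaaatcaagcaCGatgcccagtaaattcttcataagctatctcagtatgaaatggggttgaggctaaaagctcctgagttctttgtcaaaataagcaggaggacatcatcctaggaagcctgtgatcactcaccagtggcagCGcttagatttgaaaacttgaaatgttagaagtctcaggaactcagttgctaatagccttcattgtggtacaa

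The comparison asks whether silencing circHIPK2 changes the guidance genes. Groups were compared on log2(FPKM + 1) with limma, in a fit over the 13702 entries whose mean reached 1 FPKM, and a gene was called at a Benjamini-Hochberg adjusted p below 0.05. Log2 fold changes are siRNA minus control on this scale, on which differences of weakly expressed genes come out too small. None of the 46 members was called higher or lower, where 0.117% of all genes tested were called higher and 0.139% lower. The smallest adjusted p of a member was 0.194, for Nrp2. At an unadjusted p below 0.05, 5 members were lower (Nrp2, Ntn1, Plxnb1, Sema6b and Plxnc1), which is 10.9% against 15.5% of all genes, and 0 were higher, against 1.83%. With limma's weights for each library, 1 member, Nrp2, was called lower (adjusted p = 0.0484). In that fit 265 of the 13702 entries were called lower, beside 1 of the 46 members.

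Pooled over all levels, the members' distribution was close to that of all genes. Their median log2 fold change was −0.07, and that of all genes tested was −0.12. Of the 46, 35 were below 0 (76.1%), as were 77.1% of all genes, and 21 were below the median of all genes, where the share of all genes is 50%. The siRNA libraries lay entirely below the controls for 12 members (26.1%, against 22.1% of all genes) and entirely above for 1, Ephb4 (against 2.65%). With median-of-ratios scaling, which brings the median of all genes close to 0, 5 members lay entirely below (Epha4, Ephb6, Sema6b, Plxnc1 and Ntn1) and 6 entirely above (Ephb4, Efna4, Efnb2, Plxna1, Plxnd1 and Ntn4), against 10.1% of all genes in each direction. At an unadjusted p below 0.05, 2 members were then lower and 3 higher (limma). Split by level, on FPKM as deposited, the members' medians differed from those of all entries in opposite directions. The 26 members from 1 to 5 FPKM had a median of −0.14, against −0.079, and 26.9% lay entirely below, against 14.7%. The 20 members of at least 5 FPKM had a median of −0.038, against −0.14, and 25% lay entirely below, against 25.7%. These differences were not tested.

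**Figure D2:**
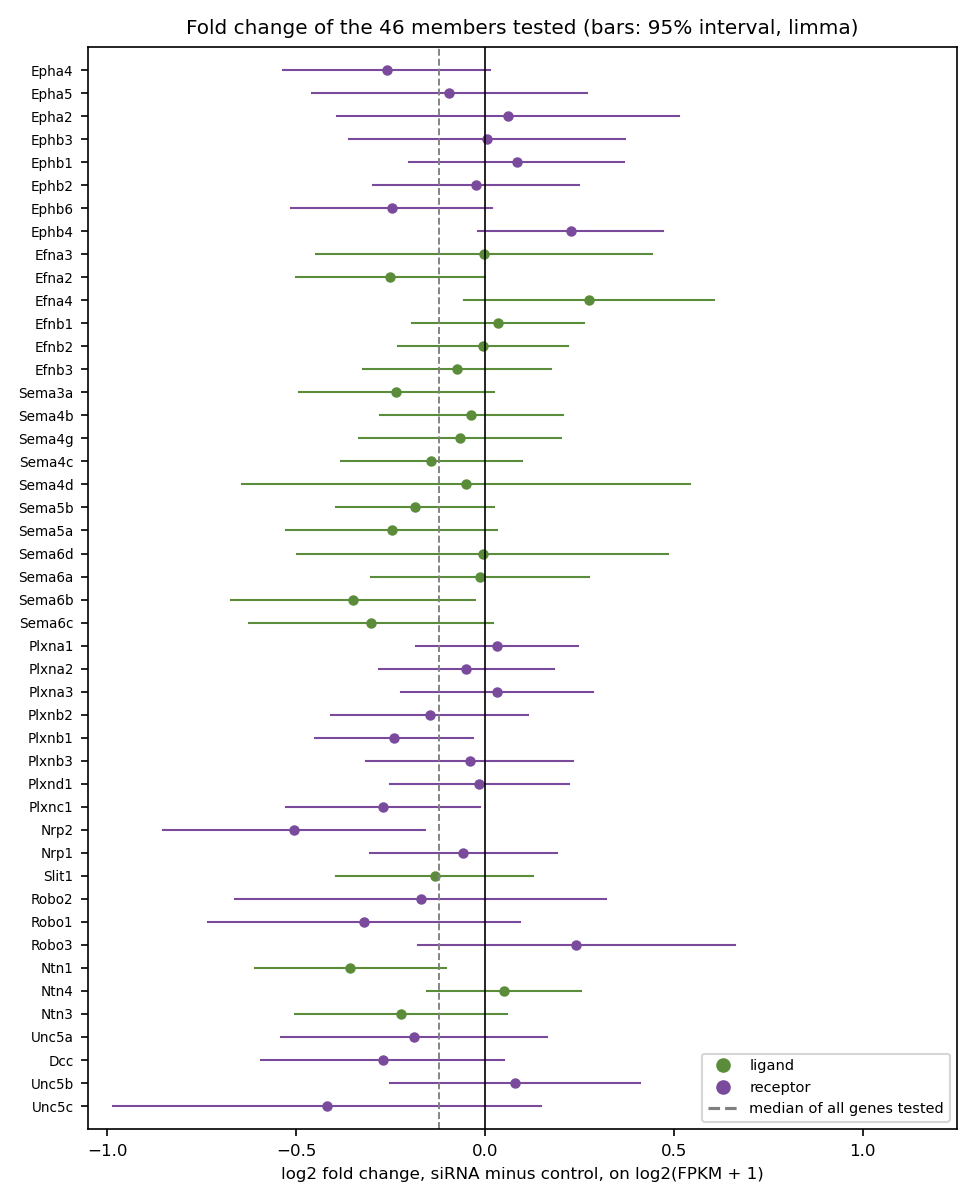
Log2 fold change (siRNA minus control) of the 46 members tested, with 95% intervals from limma, coloured as ligands or receptors. The dashed line is the median of all genes tested, −0.12; Nrp2, Ntn1, Plxnb1, Sema6b and Plxnc1 have intervals that leave out 0, and none of the 46 passed after adjustment.

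Library by library, the summed level of the 69 genes was 373, 356 and 376 FPKM in control libraries and 327, 376 and 308 FPKM in siRNA libraries 1 to 3. siRNA library 2 thus lay among the controls, and libraries 1 and 3 lay below them. Libraries 1 and 3 were also those with 11.5% and 19.9% of FPKM in the ribosomal RNA locus entries, against 3.24% in library 2. When these entries were left out of the total, the members took 0.0796%, 0.0850% and 0.0847% of the remaining FPKM in the siRNA libraries and 0.0740% to 0.0833% in the controls. Such a removal raises the share of every other gene, most in siRNA libraries 1 and 3, whatever the cause, which was not tested. The groups overlapped before and after this removal, and siRNA libraries 1 and 3 no longer lay below all controls. Of the 46 members 16 were then below 0 in place of 35, with 0 lower and 4 higher at an unadjusted p below 0.05 (limma). Of the 46, 39 were highest in library 2 among the siRNA libraries (84.8%), as were 64.2% of all genes tested.

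**Figure D3:**
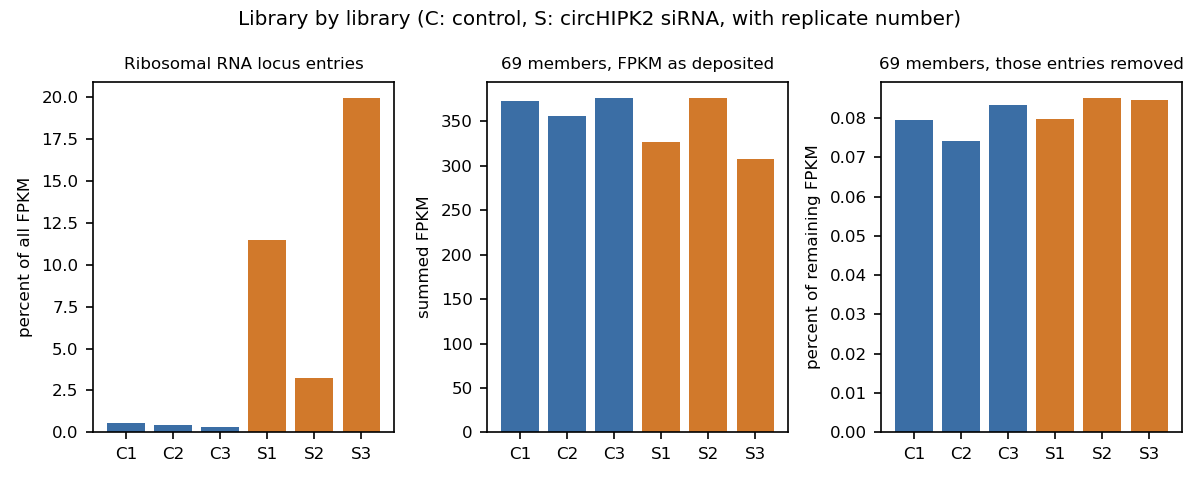
Each bar is 1 library. Left, percent of all FPKM in the 9 entries that lie in the ribosomal RNA locus or varied with it. Middle, summed FPKM of the 69 members. Right, the members' percent of FPKM after those entries were removed. Libraries S1 and S3, high on the left, are the low ones in the middle (327 and 308 FPKM), and on the right the groups overlap.

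Among Eph receptors, all 5 of the B class were tested but 3 of 9 of the A class. Epha4, a receptor for ephrins of both classes and the most abundant A-class member, held 49.3% of its family's FPKM in the controls. Its values were 5.86, 5.90 and 5.93 FPKM in control libraries and 4.003, 5.65 and 4.75 FPKM with the siRNA. The siRNA libraries were all lower, most so library 1, and library 2 was close to the controls. The log2 fold change was −0.26 (SE 0.12, with limma adjusted p = 0.307). The other A-class receptors tested, Epha5 (3.65 FPKM over all libraries) and Epha2 (1.26 FPKM), had overlapping groups.

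The B class was led by Ephb3, at 4.52, 5.73 and 7.56 FPKM in control libraries and 6.09, 6.28 and 5.25 FPKM with the siRNA, where the siRNA values lay within the range of the controls. Ephb1 and Ephb2 followed at 3.57 and 3.15 FPKM over all libraries. Ephb6, a receptor that lacks kinase activity, had 2.43, 2.40 and 2.63 FPKM in control libraries and 1.87, 2.29 and 1.69 FPKM with the siRNA (log2 fold change −0.25 with SE 0.12, and limma adjusted p = 0.312). Ephb4, best known from veins, went the other way, with 1.13, 1.09 and 1.19 FPKM in control libraries and 1.44, 1.61 and 1.45 FPKM with the siRNA. Its log2 fold change was 0.23 (SE 0.11, with limma adjusted p = 0.315). Of the 46 tested it was the one whose siRNA libraries all lay above the controls as deposited, and they did so with median-of-ratios scaling too. The groups did not overlap for Ephb6 or Ephb4, and neither passed the test.

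The ephrins were expressed at the level of their receptors. In the controls the summed FPKM of A-class ephrins was 1.12 ± 0.197 times that of A-class receptors, and with the siRNA it was 1.19 ± 0.0195 times. For the B class the ratios were 0.872 ± 0.0800 and 0.871 ± 0.0629 (SD, n = 3 each). A ratio within a library does not depend on how the library was scaled, and both overlapped between groups. Efnb1, the most abundant ephrin, had 6.40, 6.36 and 6.78 FPKM in control libraries and 7.27, 6.04 and 6.80 FPKM with the siRNA. Efnb2 and Efnb3 had 4.07 and 3.32 FPKM over all libraries. All 3 B-class ephrins overlapped between groups, and the interval of the log2 fold change of Efnb1 ran from −0.19 to 0.26.

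In the A class, Efna3 was highest, at 6.02, 4.55 and 7.30 FPKM in control libraries and 4.28, 7.05 and 6.57 FPKM with the siRNA, so that the spread within each group exceeded the difference between their means, 5.955 and 5.97 FPKM. Efna2 had 5.24, 4.604 and 5.69 FPKM and then 3.81, 4.46 and 4.29 FPKM (log2 fold change −0.25 with SE 0.11, and limma adjusted p = 0.289). The siRNA libraries of Efna2 were all lower as deposited and overlapped the controls with median-of-ratios scaling. Efna4 had 1.38, 1.12 and 1.82 FPKM and then 1.75, 2.32 and 1.76 FPKM (log2 fold change 0.28 with SE 0.14, and limma adjusted p = 0.35). Its groups overlapped as deposited, and with median-of-ratios scaling all siRNA libraries lay above the controls. In GENCODE M21, exons of Efna4 share 168 nt with an antisense transcript, 4731419I09Rik (1.19 FPKM). The libraries mark strand, but whether the counting used it is not stated, so reads of the pair cannot be told apart.

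Semaphorins and their receptors made up the largest part of the group. Their ligands summed to 98.8 ± 3.40 FPKM in control libraries and 91.9 ± 14.6 FPKM with the siRNA, and the plexins to 130.2 ± 7.79 and 121.7 ± 9.80 FPKM (SD, n = 3 each). The transmembrane classes 4, 5 and 6 carried nearly all of the ligand level, since the secreted class 3 summed to 6.23 ± 0.39 FPKM in the controls. Sema6d led, at 18.5, 25.0 and 22.6 FPKM in control libraries and 23.7, 28.7 and 15.1 FPKM with the siRNA. Its siRNA libraries spanned more than the controls did, with library 3 the lowest and library 2 the highest of all 6. Sema6a, which like Sema6d binds A-class plexins, had 16.6, 16.6 and 17.7 FPKM and then 15.9, 20.4 and 14.6 FPKM. The log2 fold changes of these abundant class 6 members were −0.01 each, with intervals from −0.50 to 0.49 for Sema6d and from −0.30 to 0.28 for Sema6a.

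For the weaker class 6 semaphorins, all siRNA libraries lay below the controls. Sema6b had 3.02, 2.605 and 2.92 FPKM in control libraries and 2.16, 2.49 and 1.501 FPKM with the siRNA (log2 fold change −0.35 with SE 0.14, and limma adjusted p = 0.266). Sema6c had 1.99, 1.49 and 2.04 FPKM and then 0.976, 1.48 and 1.46 FPKM (log2 fold change −0.30 with SE 0.14, and limma adjusted p = 0.31). For both, siRNA library 2 was the highest of the siRNA libraries and control library 2 the lowest of the controls, and with median-of-ratios scaling Sema6c overlapped between groups.

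Class 5 was represented by Sema5b and Sema5a, semaphorins that carry thrombospondin repeats. Sema5b had 14.3, 13.3 and 14.5 FPKM in control libraries and 12.5, 12.7 and 11.5 FPKM with the siRNA (log2 fold change −0.19 with SE 0.09, and limma adjusted p = 0.329). Its log2 fold change was 0.0075 when the ribosomal RNA locus entries were left out of the total. Sema5a had 5.15, 6.28 and 4.87 FPKM and then 4.39, 4.94 and 3.92 FPKM (log2 fold change −0.25 with SE 0.12, and limma adjusted p = 0.331), where control library 3 overlapped siRNA library 2. In class 4, Sema4b, the most abundant, had 15.4, 15.2 and 15.1 FPKM in control libraries and 15.7, 16.2 and 12.9 FPKM with the siRNA. Sema4g, Sema4c and Sema4d had 6.56, 4.41 and 1.17 FPKM over all libraries. All 4 overlapped between groups. Sema4d, which signals through Plxnb1, varied most among the controls, from 0.413 to 1.81 FPKM.

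Sema3a was the single class 3 semaphorin tested. This secreted repellent that signals through Nrp1 had 3.89, 3.84 and 3.94 FPKM in control libraries and 2.74, 3.11 and 3.68 FPKM with the siRNA (log2 fold change −0.23 with SE 0.11, and limma adjusted p = 0.32). The controls agreed closely and the siRNA libraries spread below them, while with median-of-ratios scaling the groups overlapped, and with the ribosomal RNA locus entries left out the log2 fold change was −0.072. Sema7a, the lipid-anchored class 7 member, had a mean of 0.998 FPKM and so just missed the limit, whereas Sema4d was the lowest that was included. Sema7a had 1.37, 1.13 and 1.14 FPKM in control libraries and 0.667, 0.902 and 0.785 FPKM with the siRNA, without overlap.

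Plexins were the most abundant guidance receptors. Plxnb2, which binds class 4 semaphorins, had 54.6, 45.6 and 52.3 FPKM in control libraries and 44.0, 51.2 and 42.3 FPKM with the siRNA. It lay above 90.7% of all genes tested, and the groups overlapped. Plxna1, which works with neuropilins for class 3 and directly with class 6 semaphorins, had 28.8, 26.1 and 27.4 FPKM and then 28.0, 29.9 and 26.3 FPKM. The interval of its log2 fold change ran from −0.18 to 0.25. Plxna2, Plxna3 and Plxnd1 had 8.59, 8.41 and 7.41 FPKM over all libraries and Plxnb3 had 5.20 FPKM, all with overlapping groups.

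Plxnb1 and Plxnc1 were the plexins tested whose siRNA libraries all lay below the controls. Plxnb1, the receptor of Sema4d, had 18.5, 17.9 and 16.4 FPKM in control libraries and 14.6, 15.3 and 14.3 FPKM with the siRNA (log2 fold change −0.24 with SE 0.09, and limma adjusted p = 0.245). With median-of-ratios scaling its log2 fold change was −0.11 and the groups overlapped, and with the ribosomal RNA locus entries left out it was −0.045. Plxnc1, the receptor of Sema7a, had 4.17, 3.66 and 3.91 FPKM and then 2.89, 3.56 and 2.81 FPKM (log2 fold change −0.27 with SE 0.11, and limma adjusted p = 0.276). Its groups did not overlap with median-of-ratios scaling either, where it was at −0.16, and with the ribosomal RNA locus entries left out it was at −0.11.

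Nrp2 had the smallest p of the 46. This co-receptor of class 3 semaphorins and of vascular growth factors had 13.8, 10.3 and 14.4 FPKM in control libraries and 7.24, 9.91 and 9.08 FPKM with the siRNA. Mean levels of 12.9 ± 2.22 and 8.74 ± 1.36 FPKM (SD, n = 3 each) give a 1.47-fold difference. The highest siRNA library, at 9.91 FPKM, was close to the lowest control, at 10.3 FPKM. The log2 fold change was −0.51 (SE 0.15; limma unadjusted p = 0.00959, adjusted p = 0.194). The exact permutation p, two-sided, was 0.1, and 3 against 3 libraries cannot give a smaller one. With median-of-ratios scaling it was −0.38 and the groups overlapped, and with the ribosomal RNA locus entries left out it was −0.32. Its paralog Nrp1 had 4.41, 5.05 and 5.44 FPKM and then 4.43, 5.12 and 4.64 FPKM. The ratio of Nrp2 to Nrp1 was 3.14, 2.05 and 2.66 in the controls and 1.64, 1.94 and 1.96 with the siRNA.

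**Figure D4:**
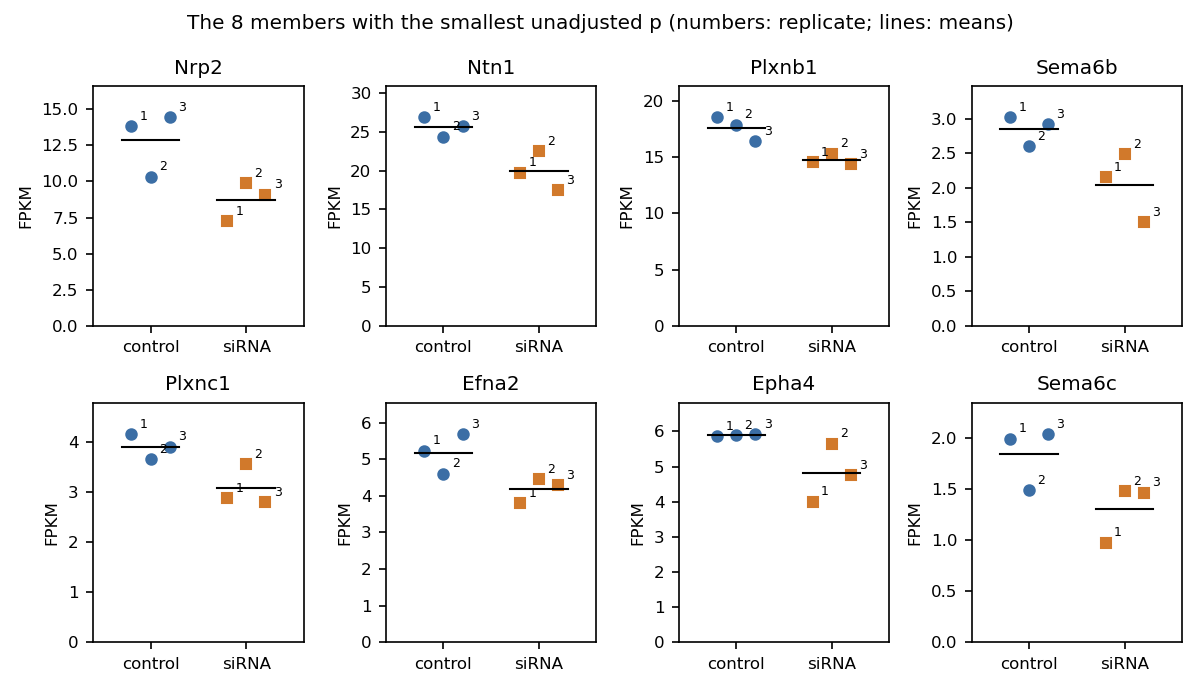
FPKM by library of the 8 members with the smallest unadjusted p, with the mean of each group as a line and the replicate number beside each point; axes start at 0. The 8 were picked by p from these same values, so their separation is no separate support. In all 8 the siRNA libraries lie below the controls, as for 22.1% of all genes tested. In all 8 siRNA library 2 is the highest of the siRNA libraries (for Sema6c by a small margin), as for 64.2% of all genes tested. With median-of-ratios scaling Nrp2, Plxnb1, Efna2 and Sema6c overlap between groups, and Ntn1, Sema6b, Plxnc1 and Epha4 do not. In none did the difference pass the test.

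Of the Slits only Slit1 reached 1 FPKM, and of the Robo receptors Robo1, Robo2 and Robo3 did. Slit1 held 89.3% of the Slit FPKM in the controls, with 3.27 to 4.01 FPKM there and 2.84 to 3.53 FPKM with the siRNA, which overlap. Slit2 had 0.330 FPKM over all libraries and Slit3 was listed at 0 in 2 libraries. Among the receptors Robo2 led, with 10.7, 10.5 and 5.70 FPKM in control libraries and 7.20, 9.01 and 6.71 FPKM with the siRNA. Control library 3 was thus lower than every siRNA library, and the interval of the log2 fold change ran from −0.66 to 0.32. Robo1 was lowest in the same control library, where the controls ran from 2.803 to 4.504 FPKM, and Robo3 was the highest of the controls in it, where they ran from 1.33 to 2.09 FPKM. Robo4, the endothelial Robo, had 0.0645 FPKM over all libraries. The Slits summed to 0.297 ± 0.104 times the Robo FPKM in control libraries and 0.276 ± 0.0331 times with the siRNA (SD, n = 3 each).

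Netrins stood at several times the summed level of the Unc5 genes and Dcc. The ratios were 4.48 ± 0.45 in the controls and 4.64 ± 0.45 with the siRNA (SD, n = 3 each). Neo1 and Dscam, from the list of partners below, were not counted as receptors here. Their control means were 27.0 and 15.8 FPKM, against 38.8 FPKM for the summed netrins. Ntn1, the secreted ligand of Dcc and Unc5 receptors, had 26.9, 24.4 and 25.7 FPKM in control libraries and 19.8, 22.5 and 17.5 FPKM with the siRNA. Mean levels of 25.7 ± 1.24 and 19.9 ± 2.50 FPKM (SD, n = 3 each) give a 1.29-fold difference, and the groups did not overlap on either scale. The log2 fold change was −0.36 (SE 0.11; limma unadjusted p = 0.0113, adjusted p = 0.199), and the exact permutation p was again 0.1. With median-of-ratios scaling it was −0.22, and with the ribosomal RNA locus entries left out it was −0.16. Ntn4, a netrin that binds laminins, had 11.2, 10.4 and 11.1 FPKM and then 10.9, 11.2 and 11.8 FPKM. The ratio of Ntn1 to Ntn4 was 2.41, 2.36 and 2.32 in the controls and 1.81, 2.01 and 1.48 with the siRNA, so that Ntn1 stood lower against Ntn4 in each siRNA library. Ntn3 had 1.97, 2.66 and 1.99 FPKM and then 1.68, 1.88 and 1.65 FPKM (log2 fold change −0.22 with SE 0.12, and limma adjusted p = 0.366), and shares 89 nt of exon with Tbc1d24 (6.03 FPKM) on the same strand in GENCODE M21.

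Among the members, the netrin receptors (the Unc5 genes and Dcc) were all weak. Unc5a, the highest, had 3.54, 2.02 and 3.01 FPKM in control libraries and 2.45, 2.36 and 2.21 FPKM with the siRNA. Dcc, the receptor that mediates attraction to netrin, had 2.21, 2.00 and 2.47 FPKM and then 1.51, 2.20 and 1.37 FPKM (log2 fold change −0.27 with SE 0.14, and limma adjusted p = 0.348). siRNA library 2 lay among the controls and the other two below them. Unc5b and Unc5c, which like Unc5a mediate repulsion, had 1.79 and 1.46 FPKM over all libraries. Unc5c spread widely with the siRNA, at 0.986, 2.05 and 0.446 FPKM, against 1.496, 2.14 and 1.67 FPKM in control libraries.

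Within families the ratio of the first to the second member by mean level overlapped between groups in most. This ratio was compared in the 16 families with more than 1 member, with no test. No share over other gene pairs was taken beside it. It overlapped between groups in 12 of them, among them Plxnb2 to Plxnb1, at 2.89 ± 0.32 and 3.11 ± 0.21, and Plxna1 to Plxna2, at 3.14 ± 0.060 and 3.34 ± 0.23 (SD, n = 3 each). Besides the Nrp2 and Ntn1 ratios above, those that did not overlap were Plxnd1 to Plxnc1 (1.90 ± 0.084 and 2.40 ± 0.25) and Slit1 to Slit2 (8.81 ± 1.86 and 14.2 ± 4.48; SD, n = 3 each). Slit2, at 0.330 FPKM over all libraries, lay below the limit for testing. The whole set of ligands stood at 0.849 ± 0.0392 times the receptors in the controls and 0.852 ± 0.0343 times with the siRNA. Families whose sums did not overlap between groups on FPKM as deposited were Sema3 (0.777 of the control mean), Sema5 (0.855), Sema7, which is Sema7a alone, Nrp (0.755) and Ntn (0.852). Of all single genes tested, 22.1% lay entirely lower as deposited and 10.1% with median-of-ratios scaling. The family sums were not taken on the scaled values.

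**Figure D5:**
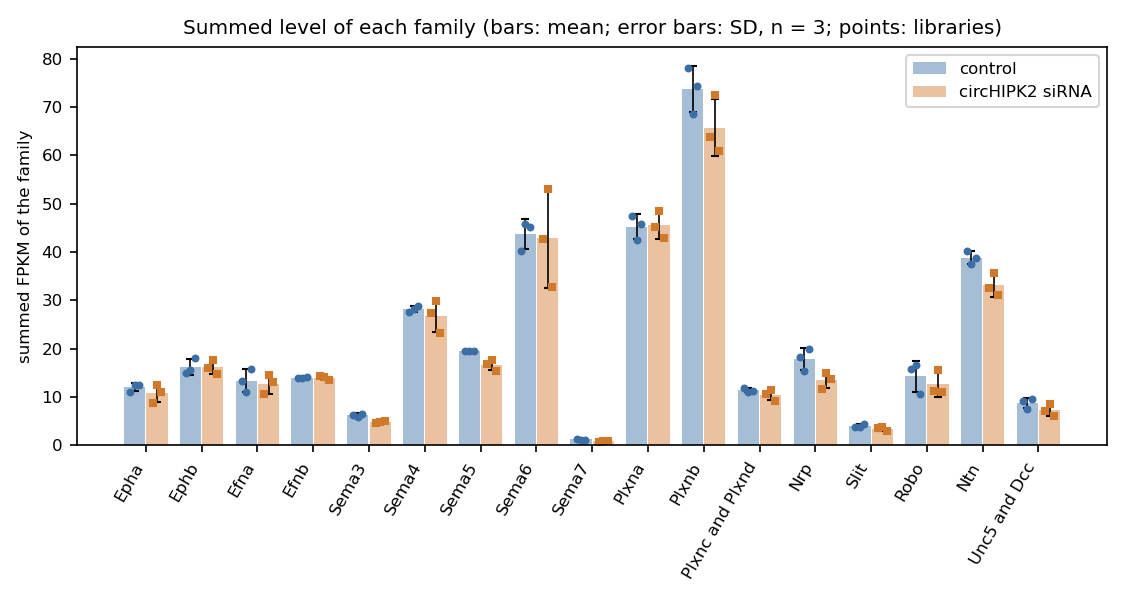
Summed FPKM of each family, as the mean of 3 libraries (bars), SD (error bars) and single libraries (points). The B-class plexins are highest, at 73.7 ± 4.79 FPKM in control libraries and 65.7 ± 5.96 FPKM with the siRNA, and the Sema3, Sema5, Sema7, Nrp and Ntn sums do not overlap between groups.

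Of the 23 members below the limit for testing, 14 had means from 0.1 to 1 FPKM. The siRNA libraries lay entirely below the controls for 5 of these (Efna1, Sema3d, Slit2, Plxna4 and Sema7a; 35.7%, against 8.66% of all entries in that range) and entirely above for 0 (against 7.65%). Sema3d, a secreted semaphorin, had 0.581, 0.583 and 0.673 FPKM in control libraries and 0.209, 0.389 and 0.133 FPKM with the siRNA. Efna1 had 0.508, 0.372 and 0.519 FPKM and then 0.290, 0.313 and 0.175 FPKM. Slit2 had 0.339, 0.486 and 0.428 FPKM and then 0.271, 0.310 and 0.147 FPKM. With median-of-ratios scaling Plxna4 overlapped between groups, while Efna1, Sema3d, Slit2 and Sema7a still lay entirely below. The share of all entries in that range was not taken on the scaled values. With no filter on low values all 69 were tested, and the smallest adjusted p of a member was then 0.257 (limma). The others of this range were Epha3, Epha7, Efna5, Sema3b, Sema3c, Sema3e, Sema3f, Sema4a and Unc5d, whose groups overlapped. The 9 members under 0.1 FPKM were Epha1, Epha6, Epha8, Epha10, Sema3g, Sema4f, Slit3, Robo4 and Ntn5, and their values rest on few fragments. Of these, Epha10 lay entirely below the controls and Ntn5 entirely above. No share over all entries under 0.1 FPKM was taken beside them, so nothing is read from either.

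Neighbouring genes could differ widely in level. In the RefSeq gene order 8 pairs of members had at most 3 coding genes between them. Efna1, Efna3 and Efna4 lie in a row, with Efna3 16.4 times the level of Efna1 and 3.52 times that of Efna4. Robo3 was 29.4 times its neighbour Robo4, and Sema3a 8.26 times its neighbour Sema3d. Ephb2 was at 3.15 FPKM and Epha8, 3 coding genes away, at 0.00652 FPKM. Robo1 and Robo2, side by side, differed least of the pairs with no gene between them, by 2.60 times.

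Partners and effectors of these receptors were taken from a separate list of 83 genes, of which 82 had a row and 73 were tested. None was called in either direction, and at an unadjusted p below 0.05, 14 were lower (19.2%, against 15.5% of all genes) and 3 higher (against 1.83% of all genes). The list's median log2 fold change was −0.14, against −0.12 for all genes. The 4 with the smallest p were 3 surface or secreted partners and 1 effector. Dscam, an adhesion molecule that also binds netrin, had 17.0, 14.7 and 15.7 FPKM in control libraries and 9.11, 11.6 and 8.45 FPKM with the siRNA (log2 fold change −0.66 with SE 0.13, and limma adjusted p = 0.106). Draxin, a secreted ligand of Dcc, had means of 5.83 ± 0.25 and 4.01 ± 0.51 FPKM (adjusted p = 0.155), and Lrrc4c, the netrin-G ligand, 10.7 ± 0.58 and 7.25 ± 1.72 FPKM (adjusted p = 0.185, limma). Rnd3, a small GTPase that opposes RhoA signalling, had 6.83 ± 0.23 and 9.17 ± 0.57 FPKM (adjusted p = 0.159, limma; SD, n = 3 each). The siRNA libraries lay below the controls for the first 3 and above them for Rnd3, and these groups did not overlap with median-of-ratios scaling either.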

How the data were processed

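The authors worked with the mm9 build and with StringTie, HISAT and edgeR, per the submitters' processing notes. Versions, roles, annotation, and any use of strand or of the adapters' molecular identifiers were not given in the sources used here. Deposited values are FPKM for 54884 entries, listed by symbol, in 6 libraries. The members, the lists and the tests were chosen with earlier results of these data known.

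FPKM were used as deposited, with a pseudocount of 1 before log2, and 13702 entries whose mean reached 1 FPKM were tested. The groups (3 and 3 libraries) entered limma 3.58.1 (R 4.3.3; mean-variance trend, two-sided, Benjamini-Hochberg adjustment). The steps were tested on simulated data with 200 changed genes. Levels are named for each member above 1 FPKM, values per library for the leading member of each family, and fold changes with p for the 16 members of smallest unadjusted p; further values, and those of members below the limit, were added after they were seen. Of the other guidance genes the 4 of smallest p are named. Depth was estimated from low values of genes with a single GENCODE M21 transcript, as the depth that best made them whole multiples of 1 fragment. At that depth 31.1% to 37.5% of them were whole multiples to within 0.05, and most were not. By chance 10% would be at a depth fixed in advance. The depth was chosen on these same values, so that share is no test of it. Alternatives were other pseudocounts, filters, scalings and limma options, the replicate number as a block and each library left out.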

Additional observations from a re-analysis of the deposited data

How the results depend on the processing

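None of the members was called in 16 of 17 alternative fits. Library weights called 1 of 46 lower, Nrp2 (log2 fold change −0.68, adjusted p = 0.0484, limma), and 4 of 73 other guidance genes lower. The calls of that fit over all 13702 entries stand in the next paragraph. Over the settings the adjusted p of Nrp2 ran up to 0.507 and that of Ntn1 from 0.0598 to 0.522 (limma). At an unadjusted p below 0.05, 5 members were lower, and 251 and 2117 of all genes were higher and lower. No named member passed the threshold as reported, so keeping to that side says little; sizes moved more, Plxnb1 from −0.24 to −0.045 and Sema5b from −0.19 to 0.0075 without the ribosomal RNA locus entries, the latter with its sign turned. The members' median minus that of all genes (0.052 on the log2 scale) was −0.037 with no filter and 0.10 at a minimum mean of 5 FPKM, and ran from −0.020 without siRNA library 2 to 0.061 without control library 3.

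Calls over all genes (16 higher and 19 lower) became 7 higher with no filter, 8 lower at a minimum of 5 FPKM, 3 and 11 with median-of-ratios scaling, 4 and 12 with quantile normalization, 8 higher with robust moderation, and 55 and 265 with library weights. With 1 library left out they ran from 2 to 15 higher and from 6 to 23 lower, the fewest without siRNA library 3. With the replicate number as a block they were 23 and 23, with 0 members. Same-numbered libraries deviated with correlations of 0.046, 0.015 and 0.13, not every library correlated best with its own number, and the numbers were not taken to pair them. The cause of these shifts was not tested. Members under 0.1 FPKM rest on few fragments at this depth.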
